A study of Mus musculus with 28 samples.

Results

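Peptide hormones and neuropeptides were followed as 10 precursor genes, Sst, Gh, Cck, Npy, Calca, Calcb, Tac1, Gal, Vip and Pomc, out of 19421 genes in the deposited table. Sst and Gh were chosen for their patterns in these data, so their levels are given as a description with no test. The other 8 were named by family, and each was compared between Dox and No Dox in each of 7 lines. In 9 of the 10 genes at least 2 libraries held 10 normalized counts or more, the level asked for before testing, and Calcb was the gene below it. Tac1 reached that level only through Dox libraries, in which it was high, so it is described without a test as well. That left 6 genes for tests.

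The series holds 28 RNA-seq libraries from 7 doxycycline (Dox) inducible mouse embryonic stem cell lines, all built in the A2loxCre parental line. Each line carries a cassette with the mVenus reporter and 1 combination of the transcription factors Atoh1, Gfi1 and Pou4f3. These are iAtoh1 (Atoh1), iGfi1 (Gfi1), iPou4f3 (Pou4f3), iG+A (Gfi1 and Atoh1), iG+P (Gfi1 and Pou4f3), iP+A (Pou4f3 and Atoh1) and iGPA (all 3 factors). Embryoid bodies (EBs), aggregates of differentiating stem cells, were harvested at day 6. Dox was given at 2 µg/ml from day 4, for 48 h, and mVenus+ cells were sorted. No Dox EBs carried the same cassette, received no Dox and were used whole and unsorted. Dox and sorting therefore cannot be told apart in any comparison below. Each line has 2 Dox and 2 No Dox libraries, which the series describes as different clones, and p-values measure the spread between these libraries.

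Peptide hormones and neuropeptides are made as larger precursors that enter the secretory pathway. Most are cut at basic residues by prohormone convertases such as Pcsk1 and Pcsk2, trimmed by carboxypeptidase E (Cpe) and stored in dense-core granules with granins. Release follows a calcium signal, and most of the peptides act on G protein-coupled receptors. Growth hormone differs, in that it is stored in granules without convertase cleavage and acts on a cytokine receptor. Several of these precursors mark subtypes of neurons and of endocrine cells.

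Promoter windows from 250 bases before to 50 bases after the start site were taken from RefSeq (GRCm38.p6) and were found for 8 of the 10 genes. Gh and Calcb had no entry in that table. The windows of Sst, Cck and Tac1 are shown because Sst had the largest fitted changes, Cck was called in 4 lines and Tac1 held its highest levels with Pou4f3, and because their windows hold a searched motif. Capitals mark the matches. The windows lie at chr16:23890795-23891094 on the minus strand (Sst), chr9:121495645-121495944 on the minus strand (Cck) and chr6:7554811-7555110 on the plus strand (Tac1).
Sst: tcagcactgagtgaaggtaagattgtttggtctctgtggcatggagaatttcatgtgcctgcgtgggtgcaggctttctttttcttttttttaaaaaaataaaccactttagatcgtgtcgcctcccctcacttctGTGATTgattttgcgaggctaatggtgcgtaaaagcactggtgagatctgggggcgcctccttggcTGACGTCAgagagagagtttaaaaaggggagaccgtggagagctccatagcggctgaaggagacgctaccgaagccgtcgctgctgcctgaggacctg
Cck: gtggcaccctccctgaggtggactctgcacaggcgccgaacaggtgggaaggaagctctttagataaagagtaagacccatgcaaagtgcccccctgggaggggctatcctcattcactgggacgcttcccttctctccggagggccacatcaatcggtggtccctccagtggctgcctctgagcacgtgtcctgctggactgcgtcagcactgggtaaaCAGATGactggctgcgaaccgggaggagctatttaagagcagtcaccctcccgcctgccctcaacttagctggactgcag
Tac1: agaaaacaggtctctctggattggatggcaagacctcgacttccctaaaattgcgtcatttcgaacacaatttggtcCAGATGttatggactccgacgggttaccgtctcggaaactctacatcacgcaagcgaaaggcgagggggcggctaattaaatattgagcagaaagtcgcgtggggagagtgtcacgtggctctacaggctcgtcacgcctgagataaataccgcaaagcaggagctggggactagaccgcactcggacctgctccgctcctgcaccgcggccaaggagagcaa
Both strands were searched for the E-box letters CAGCTG and CAGATG, the type of site bound by proneural factors such as Atoh1, for the cAMP response element TGACGTCA, for AATCAC, the core of the Gfi1 motif, and for ATTAAT, a POU core. The Sst window holds TGACGTCA 48 bases before the start site and GTGATT, the reverse complement of AATCAC, 114 bases before it. CAGATG lies 30 bases before the start site of Cck and 173 bases before that of Tac1. Of 32851 promoter windows of this length, 17.2% hold CAGATG, 16.3% CAGCTG, 10.4% AATCAC, 4.75% ATTAAT and 1.79% TGACGTCA. CAGATG was found in 3 of the 8 windows (Cck, Tac1 and Pomc), CAGCTG in 1 (Calca), AATCAC and TGACGTCA in 1 each (Sst) and ATTAAT in 0. The windows of Gal, Npy and Vip hold none of these letters. A match is a description of the letters and not of binding.

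The transgenes matched the labels of the Dox libraries. In Dox libraries of lines that carry the factor, normalized counts were 12816 to 21242 for Atoh1, 8119 to 12487 for Gfi1 and 4694 to 19883 for Pou4f3. In Dox libraries of lines without it they were 14.3 to 32.5, 49.7 to 113.0 and 27.7 to 101.1. In No Dox libraries Atoh1 held 29.6 to 120.1 in lines that carry it and 3.02 to 13.3 in the others. The No Dox ranges of carrying and other lines overlapped for Gfi1 (57.9 to 119.0 and 27.3 to 68.6) and Pou4f3 (2.22 to 72.6 and 2.25 to 20.5). The labels of the No Dox libraries are therefore not all checked by these genes. Transgene and endogenous reads are not separated in these values. Sums of normalized counts ran from 36800000 to 40400000 per library.

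Sst encodes the precursor of somatostatin, a peptide that inhibits hormone and transmitter release. It was high in iG+A and iGPA cells. In iG+A the No Dox libraries held 1.16 and 3.37 normalized counts and the Dox libraries 1826 and 2079. In iGPA the No Dox libraries held 6.11 and 3.92 and the Dox libraries 4774 and 4949.8. Both Dox groups lie far above their own No Dox libraries. The fitted change was 9.31 ± 0.73 (log2, SE, n = 2 libraries a group) in iG+A and 9.68 ± 0.73 in iGPA on the scale of log2(normalized count + 1), or 8.09 and 8.93 with a pseudocount of 5. These folds rest on a few counts in the No Dox libraries. Because the libraries are bulk samples, more cells with Sst and more Sst RNA per cell cannot be told apart here or for any gene below.

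Sst in the other 5 lines stayed low. In iG+P, which has Gfi1 but no Atoh1, it held 12.9 and 38.7 with Dox against 1.03 and 2.02 without. iP+A, which has Atoh1 but no Gfi1, held 9.03 and 5.74 against 3.08 and 4.57. With Dox, iGfi1 held 3.87 and 12.3, iAtoh1 6.37 and 1.90, and iPou4f3 3.57 and 1.95. Both lines with high Sst carry Gfi1 together with Atoh1. Ordered by their Dox means, iGPA (4862 ± 125, SD) was 2.49 times iG+A (1953 ± 179), and iG+A was 75.7 times iG+P (25.8 ± 18.3). Next came iGfi1, iP+A, iAtoh1 and iPou4f3, with means of 8.08, 7.38, 4.13 and 2.76, each overlapping the next.

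Gh encodes growth hormone, a product of pituitary somatotrophs. Across the 14 No Dox libraries it ran from 0 to 1.96 normalized counts and was listed at 0 in 8 of them. With Dox it held 881 and 1003 in iGPA, 555 and 425 in iP+A, 343 and 476 in iG+P, and 74.1 and 89.8 in iPou4f3. All 4 lines carry Pou4f3. In the 3 lines without Pou4f3 the Dox values were 5.47 and 2.85 (iAtoh1), 0.967 and 4.11 (iGfi1), and 3.19 and 0 (iG+A). Ordered by Dox means, iGPA (942 ± 86.7, SD, n = 2) came first, ahead of iP+A (490 ± 92.3), iG+P (409 ± 93.8) and iPou4f3 (81.9 ± 11.04). The libraries of iP+A and iG+P overlap, whereas iGPA lies above both and iPou4f3 below both. The fitted change was 8.64 ± 0.60 in iGPA and 8.42 ± 0.60 in iP+A (log2, SE), or 7.21 and 6.48 with a pseudocount of 5. No Dox libraries of iPou4f3, iG+A and iG+P were listed at 0, so no fold is given there.

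**Figure D1:**
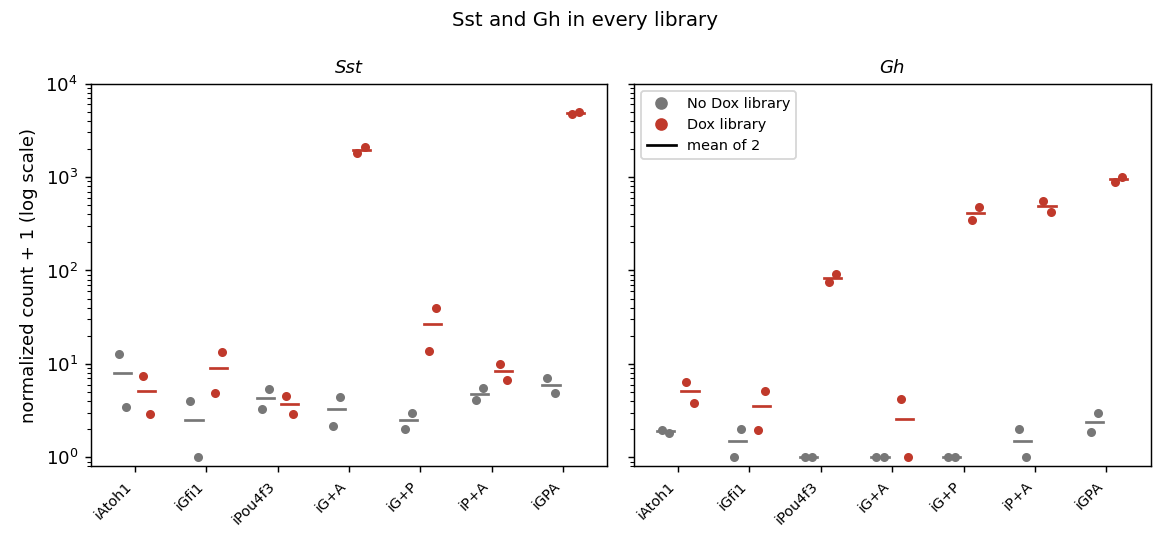
Normalized count + 1 of Sst (left) and Gh (right) on a log axis, by line, with each No Dox (grey) and Dox (red) library as a point and bars at the mean of 2 libraries. Sst is at 1826 or above in the Dox libraries of iG+A and iGPA, and Gh is at 74.1 or above in the Dox libraries of iPou4f3, iG+P, iP+A and iGPA.

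The 6 tested genes were compared in a limma fit of 16837 genes, and calls were made where the adjusted p (Benjamini-Hochberg) was under 0.05 and the log2 fold change reached 1.5 in size. In iGPA 2 of the 6 were called higher (Cck and Gal) and 0 lower, where 8.65% of all genes were called higher and 5.31% lower. In iG+A 2 were called higher (Cck and Gal) and 0 lower, beside 7.35% and 4.95% of all genes. The iAtoh1 cells had 2 higher (Cck and Gal) and 1 lower (Vip), beside 2.89% and 2.52%. The iP+A cells had 1 higher (Cck) and 1 lower (Vip), beside 4.70% and 2.58%. In iG+P 0 were called higher and 1 lower (Gal), beside 5.16% and 5.36%, and 3 of the 6 had an unadjusted p under 0.05 in limma. None of the 6 was called in iPou4f3 (1.47% of all genes higher, 0.606% lower) or in iGfi1 (2.15% and 2.67%), and in both lines 0 of the 6 had an unadjusted p under 0.05 in limma.

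Cck encodes the precursor of cholecystokinin, a gut hormone and a widespread neuropeptide. It was called higher in the 4 lines that carry Atoh1. In iP+A it held 14.3 and 11.9 normalized counts without Dox and 285 and 208 with Dox. In iAtoh1 the values were 9.77 and 4.89 against 100.5 and 149.5, and in iGPA 6.12 and 4.91 against 83.9 and 100.9. In these 3 lines the Dox libraries stood clear of their No Dox libraries, by 4.12 ± 0.66 in iP+A (log2, SE, adjusted p = 1.64e-04 in limma), 3.96 ± 0.66 in iAtoh1 (adjusted p = 3.21e-04) and 3.84 ± 0.66 in iGPA (adjusted p = 1.19e-04). The iG+A libraries held 3.48 and 15.7 without Dox and 52.1 and 56.1 with Dox, a change of 2.67 ± 0.66 (limma, adjusted p = 0.00355). That call was lost without iG+A No Dox replicate 1 (1.72, adjusted p = 0.0846), and without replicate 2 of the same group the change was 3.62.

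In the lines without Atoh1, Cck was not called. The fitted changes were 1.52 in iG+P (limma, adjusted p = 0.0871), 1.16 in iGfi1 (adjusted p = 0.211) and 1.11 in iPou4f3 (adjusted p = 0.402), each with an SE of 0.66. With the replicate block, which pairs Dox and No Dox libraries of the same number, the iG+P change was called (adjusted p = 0.0404), as it was without either iPou4f3 No Dox library (adjusted p up to 0.0305). In iPou4f3 the No Dox libraries held 2.26 and 19.0 and those with Dox 12.5 and 21.5, so the groups overlap, and the change was -0.20 without No Dox replicate 1 and 2.42 (adjusted p = 0.0494) without No Dox replicate 2. The difference of the Cck change between iGPA and iG+P, the pair that differs by Atoh1, was 2.32 ± 0.94 and was not called (limma, adjusted p = 0.105). It was called with the replicate block (adjusted p = 0.0468) and with a pseudocount of 5 (2.17, adjusted p = 0.0305). The same held with only the compared groups in the fit (limma, adjusted p = 0.0413) and without either iPou4f3 No Dox library.

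Gal encodes the precursor of galanin, a neuropeptide that inhibits transmitter release. It moved in both directions. In iG+A it held 42.9 and 44.8 without Dox and 279.6 and 937 with Dox. The rise was 3.52 ± 0.44 (log2, SE, limma, adjusted p = 5.85e-06). The 2 Dox libraries lay far apart, and the rise was 4.39 without Dox replicate 1 and 2.64 without Dox replicate 2, both called. In iGPA the values were 22.7 and 30.5 against 140.1 and 150.3, a rise of 2.42 ± 0.44 (adjusted p = 2.11e-04). In iAtoh1 they were 27.3 and 30.2 against 161.7 and 118.3, a rise of 2.23 ± 0.44 (limma, adjusted p = 0.00141). The opposite was found in iG+P, where Gal fell from 44.0 and 25.1 to 5.90 and 4.33, a change of -2.50 ± 0.44 (limma, adjusted p = 2.30e-04). The iP+A Dox libraries (33.5 and 34.6) lay within the range of their No Dox libraries (56.0 and 30.3), with a change of -0.27 (adjusted p = 0.708). The changes in iPou4f3 (-0.59) and iGfi1 (0.22) were not called either.

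**Figure D2:**
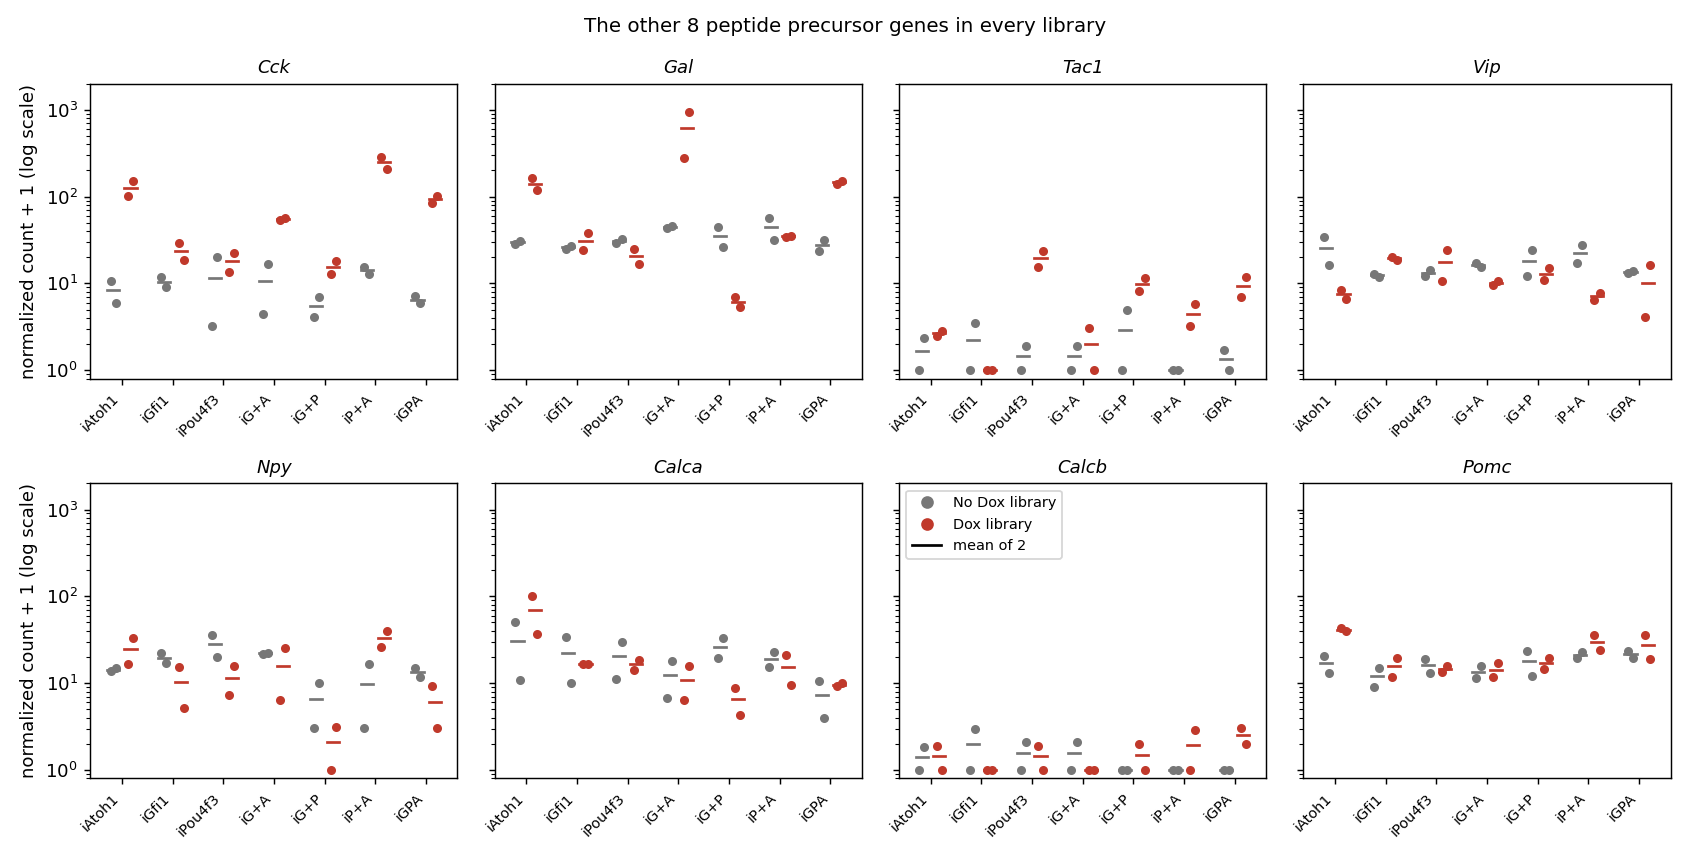
Normalized count + 1 on a log axis for the 8 genes not chosen on these data, by line, with each No Dox (grey) and Dox (red) library as a point and bars at the mean of 2 libraries. Cck is raised in the 4 lines with Atoh1, Gal is raised in iAtoh1, iG+A and iGPA and lowered in iG+P, and Calcb stays at 2.05 normalized counts or below.

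The question whether a further factor changed the Dox effect was put in 7 contrasts between lines, which share libraries with each other. Gal was the gene called among the 6 tested. Its Dox effect was higher in iGPA than in iG+P by 4.92 ± 0.63 (log2, SE, limma, adjusted p = 5.01e-05), where 4.24% of all genes were called higher and 1.66% lower, and higher in iGPA than in iP+A by 2.69 ± 0.63 (adjusted p = 0.00572), beside 4.76% and 2.84%. Both calls held with each library left out in turn. The effect was lower in iP+A than in iAtoh1, with a difference of -2.50 ± 0.63 (limma, adjusted p = 0.0230), beside 2.09% of all genes higher and 0.689% lower. It was lower in iG+P than in iGfi1, with a difference of -2.72 ± 0.63 (adjusted p = 0.0187), beside 1.42% and 0.428%. The last 2 calls were weaker. For iP+A against iAtoh1, leaving out iAtoh1 No Dox replicate 1, iAtoh1 Dox replicate 1, iP+A No Dox replicate 1 or either iP+A Dox library gave adjusted p values up to 0.113. For iG+P against iGfi1, leaving out either iGfi1 No Dox library, iGfi1 Dox replicate 2, iG+P No Dox replicate 1 or iG+P Dox replicate 2 gave adjusted p values up to 0.100.

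No tested gene was called between iGPA and iAtoh1 (6.05% of all genes higher, 2.99% lower), iGPA and iG+A (1.60% and 0.600%) or iG+A and iAtoh1 (4.44% and 2.44%). In limma 0 of the 6 had an unadjusted p under 0.05 in these contrasts. The Gal effect in iG+A exceeded that in iAtoh1 by 1.29 and that in iGPA by 1.10 in the fit. Without iG+A Dox replicate 1, both differences were called (2.16, adjusted p = 0.0127, and -1.97 for iGPA minus iG+A, adjusted p = 0.0444).

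Tac1 encodes the precursor of substance P and neurokinin A. It was low throughout, at 0 to 3.89 normalized counts in the No Dox libraries, and is given as a description. In iPou4f3 it held 14.6 and 22.7 with Dox against 0 and 0.918 without, in iG+P 7.27 and 10.5 against 0 and 3.89, and in iGPA 5.93 and 10.8 against 0.719 and 0. The Dox libraries lay above the No Dox libraries in these 3 lines, which carry Pou4f3. In iP+A, which also carries it, Tac1 held 2.23 and 4.75 with Dox and was listed at 0 without. In the 3 lines without Pou4f3 the Dox values were 0 to 2.06. The fitted changes were 3.80 in iPou4f3, 2.79 in iGPA and 2.14 in iG+P (log2, SE 0.78). They rest on a few reads, and the iG+P change was 1.00 without No Dox replicate 1. With a pseudocount of 5 the changes were 2.10 in iPou4f3, 1.30 in iGPA and 1.05 in iG+P.

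Vip encodes the precursor of vasoactive intestinal peptide, a vasodilator and neuropeptide. It was called lower in iAtoh1 and iP+A. In iAtoh1 it held 33.2 and 15.5 without Dox and 7.31 and 5.68 with Dox, a change of -1.67 ± 0.55 (log2, SE, limma, adjusted p = 0.0341). In iP+A it held 16.3 and 26.7 against 5.43 and 6.73, a change of -1.63 ± 0.55 (adjusted p = 0.0358). Both pairs of groups were apart, yet each call was lost without any 1 of 3 of its own 4 libraries. These were iAtoh1 No Dox replicate 1 (-1.15, adjusted p = 0.269), iAtoh1 Dox replicate 1 (adjusted p = 0.0830) and Dox replicate 2 (adjusted p = 0.154). For iP+A they were No Dox replicate 2 (-1.29, adjusted p = 0.217), Dox replicate 1 (adjusted p = 0.172) and Dox replicate 2 (adjusted p = 0.0923). With a pseudocount of 5 or 1 control group of all No Dox libraries, both changes were below the fold threshold, and with only the compared groups in the fit both had an adjusted p above 0.05 (0.101 and 0.0611). In the other 5 lines the change ran from -0.74 in iGPA to 0.64 in iGfi1, with no call. In iGPA the values were 12.2 and 12.8 without Dox and 3.07 and 15.1 with Dox, and the change was called without Dox replicate 2 (-1.73, adjusted p = 0.0203).

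Npy, Calca, Calcb and Pomc had no call. Npy, the precursor of neuropeptide Y, ran from 2.04 to 35.0 normalized counts in the No Dox libraries and from 0 to 39.4 in the Dox libraries. Its largest fitted change was in iP+A, where 2.04 and 15.6 stood against 25.3 and 39.4 (2.20 ± 0.87, limma, adjusted p = 0.0715). With a pseudocount of 5 this change was called (1.61, limma, adjusted p = 0.0437). The replicate block gave the same change a call (adjusted p = 0.0252), as did leaving out iP+A No Dox replicate 2 (3.43, adjusted p = 0.0197). That library held the highest sum of the 8 pluripotency markers, 22581 normalized counts, and the part of this in the result was not tested. In the other lines the Npy change ran from -1.64 in iG+P to 0.71 in iAtoh1, and with all No Dox libraries as 1 control group the iG+P change was called (-2.93, adjusted p = 0.00224). The difference of the Npy change between iGPA and iP+A was -3.54 ± 1.22 and was not called (limma, adjusted p = 0.0519). This difference was called with a pseudocount of 5 (-2.46, adjusted p = 0.0380) and with quantile normalization (-3.78, adjusted p = 0.0350). It was called with the replicate block (adjusted p = 0.0176), without iP+A No Dox replicate 2 (-4.76), without iGPA Dox replicate 1 (-4.34), and without any 1 library of iG+P, of iG+A with Dox or of iGfi1 with Dox, which do not enter the difference (adjusted p up to 0.0486).

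Calca encodes calcitonin and the calcitonin gene-related peptide, which mark sensory neurons that signal pain. In iG+P it held 18.4 and 32.1 without Dox and 7.86 and 3.25 with Dox, and the groups did not overlap (-2.05 ± 0.81, limma, adjusted p = 0.0586). The replicate block (adjusted p = 0.0216) and a fit of only the compared groups (limma, adjusted p = 0.0345) each made this a call. So did leaving out either iAtoh1 No Dox library, although these libraries do not enter the change. In iAtoh1 the libraries ranged widely, with 49.8 and 9.79 without Dox and 99.6 and 36.0 with Dox (1.38, adjusted p = 0.234), and with all No Dox libraries as 1 control group this was called (1.93, adjusted p = 0.0271). The other 5 changes ran from -0.40 to 0.57. Calcb, its neighbour and paralog, was at most 2.05 normalized counts in any library and was listed at 0 in 10 of 14 No Dox and 8 of 14 Dox libraries, so its level could not be compared at this depth.

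Pomc encodes pro-opiomelanocortin, the precursor of ACTH, melanocortins and beta-endorphin. In iAtoh1 it held 19.5 and 12.2 without Dox and 42.0 and 38.8 with Dox. The change of 1.33 ± 0.43 (log2, SE) had an adjusted p of 0.0339 in limma but was below the fold threshold, and it was past that threshold without iAtoh1 No Dox replicate 1 (1.64, adjusted p = 0.0455). In the other 6 lines the change ran from -0.13 to 0.49.

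**Figure D3:**
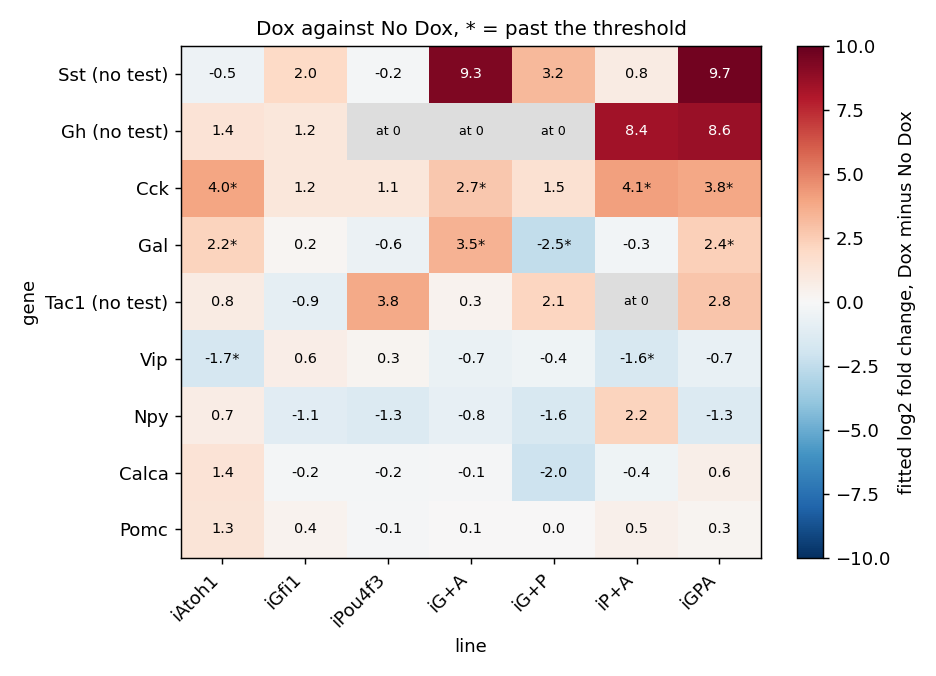
Fitted log2 fold change (Dox minus No Dox) of 9 genes (rows) in 7 lines (columns), red for higher and blue for lower, with an asterisk where the change was called. Grey cells had both No Dox libraries listed at 0, Sst, Gh and Tac1 have no test, and the called cells are Cck and Gal in 4 lines each and Vip in 2.

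Levels of different genes were compared per kilobase of the longest annotated transcript. In iGPA with Dox, Sst held 8116 normalized counts per kb and Gh 1093, against 203.9 for Gal, 115.8 for Cck, 26.3 for Pomc, and 8.09 for Tac1. In iG+A with Dox, Sst held 3260 per kb and Gal 854.5 ± 653.0 (SD). In iAtoh1 with Dox the order differed, with Gal at 196.6 ± 43.1 and Cck at 156.6 ± 43.4 per kb overlapping at the top and Sst at 6.90. On NCBIM37, the build of the deposited values, Calca and Calcb are neighbours on chromosome 7, and Npy and Tac1 share chromosome 6. Sst has 2 exons at chr16:23889667-23890930 and Gh 5 exons at chr11:106161585-106163179. Cck lies at chr9:121398943-121404807, Gal at chr19:3409919-3414472 and Tac1 at chr6:7505071-7512973, and no annotated gene overlaps any of the 10.

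Genes whose log2 levels closely followed those of a peptide gene over the 28 libraries are given as a description, since all points share their libraries. For Sst these included Msln (Pearson r = 0.953) and Cnp (0.939). For Gh they were Sncg (0.974), which encodes gamma-synuclein, Pou4f3 itself (0.967), which holds the transgene's reads, and Shc1 (0.966). For Cck they were Rassf4, Gamt and Serinc2 (0.935 to 0.921), for Gal Mmp28, Sting1 and Eng (0.908 to 0.895) and for Tac1 they included Sucnr1 (0.854) and C1qb (0.834).

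The other genes of the peptide pathway were taken from 4 lists. As for Tac1, some list genes reached the level for testing only with the help of Dox libraries in which they were high, so counts of calls cover the list genes whose No Dox libraries alone reached it, and the others are described without a test. The shares over all genes set beside these counts include genes of both kinds. Of the other peptide precursors, 35 of 41 counted. In iG+A 4 were called higher and 6 lower, beside 7.35% and 4.95% of all genes, and in iGPA 2 and 4, beside 8.65% and 5.31%. In iAtoh1 2 were higher and 3 lower (2.89% and 2.52% of all genes), in iG+P 0 and 4 (5.16% and 5.36%), in iGfi1 0 and 2 (2.15% and 2.67%), in iP+A 1 and 0 (4.70% and 2.58%) and in iPou4f3 0 and 0 (1.47% and 0.606%). Their median change lay between -0.44 in iP+A and -0.13 in iG+P, beside -0.03 to 0.02 for all genes. Sct, the precursor of the gut hormone secretin, rose in the 4 lines with Atoh1. In iG+A it held 25.6 and 50.5 without Dox and 3645 and 2054 with Dox (6.21 ± 0.40, limma, adjusted p = 2.02e-09). The rises in iGPA (5.98), iP+A (5.14) and iAtoh1 (5.10) were also called, and the changes in the lines without Atoh1 were not. Tac2, the precursor of neurokinin B and a paralog of Tac1, fell in 5 lines, most in iGPA, from 1161 and 1385 to 18.47 and 22.26 (-5.90 ± 0.77, limma, adjusted p = 6.09e-06). Its change in iP+A (-1.85, limma, adjusted p = 0.0890) was called with the replicate block (adjusted p = 0.00719). Adcyap1, the precursor of the peptide PACAP, and Cartpt, the precursor of CART peptides, are described without a test. With Dox, Adcyap1 held 76.8 and 40.4 in iGPA, 58.0 and 31.7 in iP+A, 28.5 and 37.9 in iG+P and 12.5 and 12.7 in iPou4f3, the 4 lines with Pou4f3, and at most 1.89 in the other 3 lines. It was at most 5.01 in any No Dox library. Cartpt was at most 1.16 in any No Dox library. With Dox it held 20.5 in both libraries of iPou4f3, 14.5 and 14.4 in iP+A and 7.89 and 4.32 in iG+P. The Dox libraries of iG+A held 1.06 and 15.9, those of iGPA 1.02 and 4.03 and those of iGfi1 3.87 and 1.03, and in iAtoh1 it was listed at 0. Thus it was high in both libraries of iPou4f3 and iP+A and in 1 of the iG+A libraries.

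Of 15 granins and granule proteins, 12 counted. In iP+A 5 were called higher and 1 lower, beside 4.70% and 2.58% of all genes, with a median change of 1.24 beside -0.03 over all genes. In iGPA 5 were higher and 1 lower (8.65% and 5.31% of all genes, median 1.27), and in iG+A 3 and 1 (7.35% and 4.95%, median 0.90). In iG+P 1 was higher and 1 lower (5.16% and 5.36%), in iAtoh1 (2.89% and 2.52%) and iGfi1 (2.15% and 2.67%) 1 and 0, and in iPou4f3 0 and 0. Scg3, a granin of dense-core granules, rose in iP+A from 9.15 and 8.28 to 496 and 319 (5.36 ± 0.43, limma, adjusted p = 4.32e-08), in iGPA (3.55) and in iG+A (1.73). Chga, chromogranin A, rose in iG+P (3.05), iGfi1 (2.06) and iGPA (2.05). Pcsk1n, an inhibitor of Pcsk1, fell in iG+A (-3.14), iP+A (-1.66) and iGPA (-1.64). Syt4, a synaptotagmin of dense-core granules, held 86.0 and 59.6 in iP+A with Dox and at most 6.40 in any library outside that group, and is described without a test.

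All 14 processing enzymes tested counted. In each of iG+A (7.35% and 4.95% of all genes), iP+A (4.70% and 2.58%) and iGPA (8.65% and 5.31%) 3 were called higher and 1 lower. In iG+P 2 were higher and 2 lower (5.16% and 5.36% of all genes), in iPou4f3 2 and 0 (1.47% and 0.606%), in iGfi1 0 and 1 (2.15% and 2.67%) and in iAtoh1 0 and 0 (2.89% and 2.52%). Median changes stayed between -0.61 (iGfi1) and 0.19 (iGPA). Pcsk1, the convertase of many precursors, rose in iG+A from 1.13 and 4.35 to 54.7 and 68.6 (4.21 ± 0.67, limma, adjusted p = 6.97e-05), in iGPA (3.13) and in iP+A (2.34). Cpe rose in 5 lines and most in iP+A, from 417 and 307 to 5228 and 4938 (3.82 ± 0.24, limma, adjusted p = 1.47e-09). Pcsk2 rose in iP+A (2.72, adjusted p = 7.18e-06). Pcsk6, a convertase of growth factor precursors, rose in iPou4f3, iG+A, iG+P and iGPA, with 4.55 ± 0.39 in iGPA (adjusted p = 3.31e-08).

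Of 25 tested receptors of the 10 peptides, 21 counted. In iGPA 4 were called higher and 2 lower, beside 8.65% and 5.31% of all genes, in iG+A 3 and 3 (7.35% and 4.95%) and in iG+P 1 and 5 (5.16% and 5.36%). In iP+A 2 were higher and 1 lower (4.70% and 2.58% of all genes), in iGfi1 2 and 2 (2.15% and 2.67%), in iAtoh1 1 and 0 (2.89% and 2.52%) and in iPou4f3 0 and 1 (1.47% and 0.606%). Median changes ran from -0.37 to 0.14. Sstr2, a somatostatin receptor, rose in iG+A from 14.1 and 3.19 to 332 and 705 (5.93 ± 0.87, limma, adjusted p = 3.05e-05), in iGPA from 6.65 and 0.644 to 76.1 and 102.4 (4.65, adjusted p = 2.51e-04) and in iP+A (3.72). Its rise in iP+A stood beside low Sst there. Galr1, a galanin receptor, was listed at 0 in the No Dox libraries of iG+A and held 21.3 and 22.0 with Dox, with 15.4 and 9.08 in iGPA with Dox and at most 3.85 in any other library, and is described without a test. The same holds for Npy5r and Mc4r, receptors for neuropeptide Y and melanocortins, which stayed at 17.4 normalized counts or below.

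**Figure D4:**
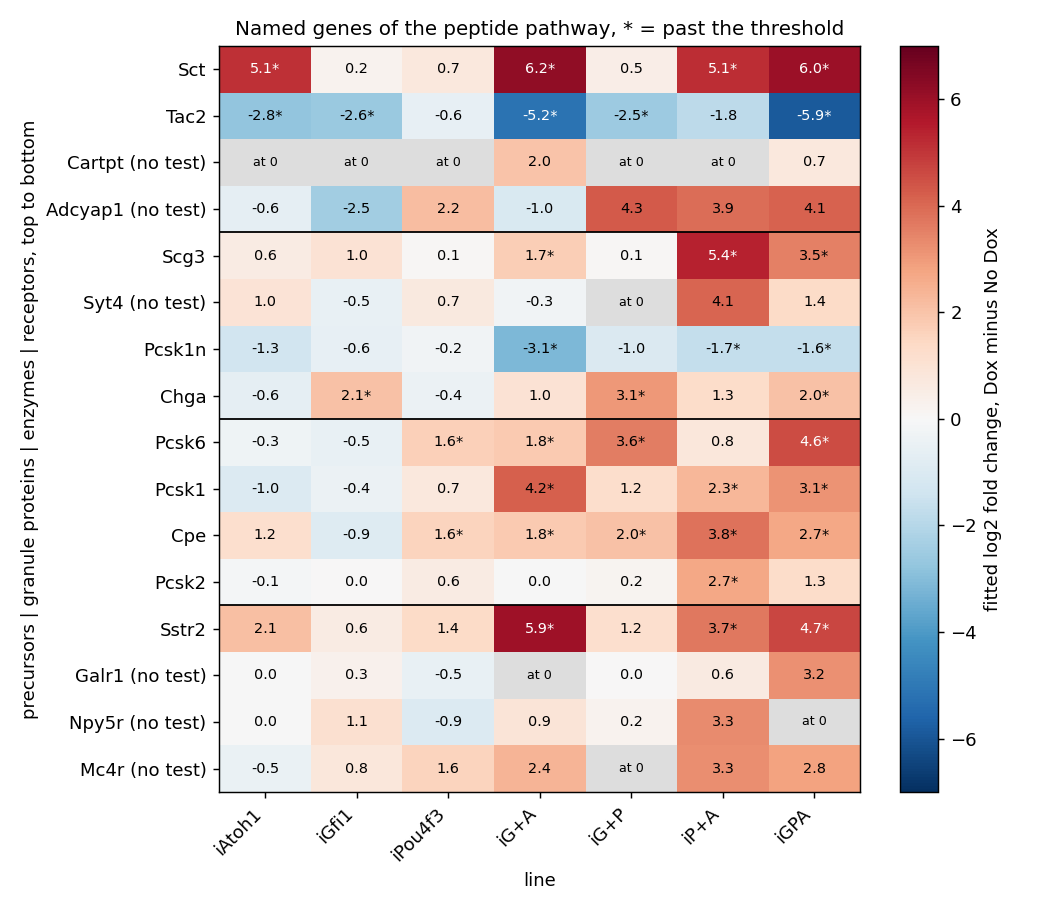
Fitted log2 fold change (Dox minus No Dox) in 7 lines (columns) for the named genes of the peptide pathway (rows, 4 from each list, split by black lines), with an asterisk where the change was called grey cells where both No Dox libraries were listed at 0, and no test for the genes that needed Dox libraries to reach the level for testing. Sct is called in the 4 lines with Atoh1, and Cpe is called in 5 lines with its largest change, 3.82, in iP+A.

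Markers of cells in which these hormones are usually found moved unevenly with Sst and Gh. Of 14 endocrine pancreas and gut genes, 11 counted. In both iG+A (7.35% and 4.95% of all genes) and iGPA (8.65% and 5.31%) 5 were called higher, with 1 and 2 lower, and in iP+A 3 and 0 (4.70% and 2.58%). Medians were 0.67 in iG+A, 1.24 in iGPA and 1.01 in iP+A. The summed level of the list without and with Dox was 1613 to 2444 against 7169 to 9211 normalized counts in iG+A, 1658 to 2089 against 16553 to 16909 in iGPA, and 1885 to 1977 against 8153 to 9555 in iP+A, where Sst was at 9.03 and 5.74. Insm1, a factor of endocrine and neuronal precursors, reached 5822 and 6019 in iGPA, 4579 and 3540 in iP+A and 2233 and 1689 in iG+A with Dox. The list's sum was therefore higher with Dox in iP+A too, without a comparable level of Sst. Of its defining genes, Gcg was at most 1.22 and Ins1 at most 1.23 normalized counts in the Dox libraries of iG+A and iGPA, and Neurog3 was at 0 in all 4 of them. Called higher and lower in the other lines were 3 and 0 (iAtoh1, beside 2.89% and 2.52%), 0 and 1 (iGfi1, 2.15% and 2.67%), 1 and 0 (iPou4f3, 1.47% and 0.606%) and 2 and 1 (iG+P, 5.16% and 5.36%). The part of these markers in the Sst levels was not tested.

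Of 15 pituitary genes, 13 counted. In iGPA 0 were called higher and 3 lower (8.65% and 5.31% of all genes), in iG+P 0 and 3 (5.16% and 5.36%), in iP+A 1 and 0 (4.70% and 2.58%) and in iPou4f3 0 and 0 (1.47% and 0.606%), these being the lines with Gh. In iG+A 1 was higher and 3 lower (7.35% and 4.95%), in iGfi1 0 and 2 (2.15% and 2.67%) and in iAtoh1 0 and 0 (2.89% and 2.52%). Medians lay between -0.83 and 0.17. Lhx3, which is also a hair cell gene and is described without a test, was at most 4.81 in any No Dox library. With Dox it held 337 and 497 in iGPA, 76.0 and 143 in iG+A, 47.9 and 28.8 in iP+A, 9.14 and 1.35 in iAtoh1, 5.63 and 4.64 in iG+P, 1.38 and 2.36 in iGfi1 and 0 and 1.397 in iPou4f3. The order of its levels differs from that of Gh, which held 343 and 476 in iG+P with Dox and 3.19 and 0 in iG+A. Pou1f1, the pituitary factor that activates Gh, was called in none of the 7 lines. Its values in iGPA were 15.7 and 16.7 without Dox and 17.4 and 7.07 with Dox. Ghrhr, the receptor for the releasing hormone of Gh, was not tested. It held 5.87 and 4.82 in iGPA with Dox and at most 2.14 in any No Dox library. The summed level of the list in iGPA was 17995 to 21156 without Dox and 8947 to 9690 with Dox, and Pitx1, a factor of the early pituitary, was called lower in iGPA, iG+P, iG+A and iGfi1. The part of these markers in the Gh levels was not tested.

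Of the neuronal and hair cell markers, 10 sensory, 10 sympathetic and enteric, 10 pan-neuronal and 6 hair cell genes counted, and they are given here by line as called higher and lower. Peptidergic sensory neuron markers had 5 and 0 in iGPA and in iG+A, 4 and 0 in iP+A, 2 and 1 in iAtoh1, and 1 and 0 in iGfi1, iPou4f3 and iG+P. Sympathetic and enteric neuron markers had 4 and 1 in iAtoh1, 4 and 0 in iP+A, 3 and 2 in iGPA, 1 and 2 in iG+A and in iG+P, 0 and 2 in iGfi1 and 0 and 0 in iPou4f3. Pan-neuronal markers had 10 and 0 in iP+A, 9 and 0 in iGPA, 4 and 0 in iAtoh1 and iG+A, 3 and 0 in iPou4f3 and iG+P and 0 and 0 in iGfi1, and their sum in iP+A was 17592 to 23770 with Dox against 702 to 1086 without. Hair cell markers had 3 and 0 in iGPA, 2 and 0 in iG+A and iG+P, 1 and 0 in iP+A and iPou4f3 and 0 and 0 in iAtoh1 and iGfi1. Among all genes 8.65% were called higher and 5.31% lower in iGPA, 7.35% and 4.95% in iG+A, 5.16% and 5.36% in iG+P, 4.70% and 2.58% in iP+A, 2.89% and 2.52% in iAtoh1, 2.15% and 2.67% in iGfi1 and 1.47% and 0.606% in iPou4f3.

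Markers of other cell types of whole EBs were called lower in most lines, but not in all. Of 10 blood markers, 7 were called lower in iAtoh1 (2.52% of all genes), 6 in iG+A (4.95%), 6 in iP+A (2.58%, with 1 higher beside 4.70%), 5 in iGPA (5.31%) and 2 in iG+P (5.36%). In iG+P their median change was 0.38. In iGfi1 0 were lower and 1 higher (2.67% and 2.15% of all genes), with a median of 1.08 and sums of 183100 to 266930 without Dox and 207960 to 381930 with Dox, and in iPou4f3 none was called. In iG+A, by contrast, the blood markers summed to 395590 to 510010 normalized counts without Dox and 48418 to 56743 with Dox. Endothelial and mesenchymal markers were called lower in 2 to 6 of 10 in every line but iPou4f3 (0.606% of all genes), and pluripotency markers in 6 of 8 in iP+A, 4 in iG+A and iGPA, 2 in iG+P and 0 in the other 3 lines. The part of these shifts in the changes of Cck, Gal, Tac1 and Vip was not tested.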

How the data were processed

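RNA-seq was carried out on 28 libraries (7 lines, 2 Dox and 2 No Dox each). The authors trimmed reads with cutadapt, estimated transcript counts with Kallisto against UCSC knownGene (mm9), summed them per gene with tximport and normalized them with DESeq2, with versions not given in the sources used here. The values they deposited are log2 of normalized counts plus 1, and these were turned back into normalized counts for levels. One read was worth 0.816 to 1.22 normalized counts, but 72.4% to 79.4% of values up to 20 were whole multiples of it (within 0.05), so reads were not recovered and no count test was run. Depth was estimated at 30300000 to 48000000 reads per library, and small values rest on few reads.

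A gene entered the model when 2 or more libraries held 10 or more normalized counts (16837 of 19421). The model was limma's (version 3.58.1, run under R 4.3.3), on the log2 values with a variance trend and 14 groups (14 residual degrees of freedom). Benjamini-Hochberg adjustment was made within each of 14 contrasts over all fitted genes. The fit was first run on simulated counts, with changes put into the iGPA contrast only and not into genes of low mean count. That run is therefore no check of calls on genes with few reads. Calls needed an adjusted p under 0.05 and a log2 fold change of at least 1.5. Replicate numbers come from the sample labels, and deviations of Dox and No Dox libraries of the same number correlated at 0.103 to 0.246 in the 7 lines, so they were taken to pair the libraries, and blocked values are given where a call changed. The genes and lists were chosen with earlier results of these data known. All 10 genes are named, and from each list up to 4 genes with the largest called change that moved the same way in both replicate pairs. This rule used the fit over all genes, so it also named genes that passed the filter only through Dox libraries, and for those no call or p is given. List genes named in addition (Gcg, Ins1, Neurog3, Pou1f1, Ghrhr) were named after their values were seen, and a few genes that the rule would name are not reported here. Lists were described, with no set test, by counts and medians over the genes whose No Dox libraries alone reached 10 normalized counts in 2 or more libraries, and genes that needed Dox libraries for this are described by their levels. Alternatives were other pseudocounts, filters, scalings, fits and left-out libraries.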

Additional observations from a re-analysis of the deposited data

Results flagged for a closer look

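In limma, the Dox effect on Gal differed between lines in 4 of the 7 contrasts. The difference was 4.92 on the log2 scale for iGPA minus iG+P and 2.69 for iGPA minus iP+A, higher in each case in the line that also carries Atoh1 or Gfi1. It was -2.50 for iP+A minus iAtoh1 and -2.72 for iG+P minus iGfi1, lower in each case in the line that also carries Pou4f3. Each is a test of the difference itself over 2 libraries a group, and the contrasts share libraries.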

How the results depend on the processing

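Only large changes could be called, since a call needed a log2 fold change of at least 1.5. Each group had 2 libraries, and few reads stood behind Tac1, Vip, Npy and Calcb. Over all genes, 1.47% to 8.65% were called higher and 0.606% to 5.36% lower in a line. In the 7 contrasts between lines, 1.42% to 6.05% were higher and 0.428% to 2.99% lower. Of the changes of the 6 tested genes in 7 lines, 7 were called higher and 3 lower, and 4 of their differences in 7 contrasts were called. The 4 pathway lists counted 35 precursors, 12 granule proteins, 14 enzymes and 21 receptors that passed the filter on No Dox libraries alone. These had 51 calls higher and 43 lower in the 7 lines. With each library left out in turn these counts ran from 6 to 9, from 2 to 4 and from 3 to 7, and those of the lists from 48 to 53 higher and from 37 to 46 lower. The Cck change in iPou4f3 ran from -0.20 without iPou4f3 No Dox replicate 1 to 2.42 without replicate 2. Of the 21 changes of the tested genes that were under 1 on the log2 scale, 16 changed direction in at least 1 alternative, so no direction is read from them. With a pseudocount of 5 and with a filter of 50 normalized counts, 1 gene was called lower. With the replicate block, which pairs libraries of the same number, 9 were called higher, 4 lower and 6 differed between lines, and its changes to the calls of the 6 tested genes stand in the report. In the lists it gave 55 calls higher, of which 51 were shared with the fit without it, and 51 lower, of which 41 were shared. With only the groups compared in the fit, the Gal differences iP+A minus iAtoh1 (adjusted p = 0.0548, limma) and iG+P minus iGfi1 (adjusted p = 0.0529) were lost, and the second was also lost with quantile normalization (-2.53, adjusted p = 0.0549). Over the other alternatives the calls higher ran from 7 to 9, the calls lower from 1 to 4 and the differences from 3 to 6, with 46 to 66 higher and 31 to 61 lower in the lists. The cause of these shifts was not tested.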
